A study of Arabidopsis thaliana with 22 samples.

Results

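The respiratory burst oxidase homologues (RBOHs) are the NADPH oxidases of the plant plasma membrane, and Arabidopsis thaliana has 10 of them, RBOHA to RBOHJ. Their transcripts were followed by RNA sequencing of mature leaves from the wild type and from 4 photorespiratory mutants, before and after a drop in CO2. The members were taken by locus identifier from one deposited table, which listed 25680 loci and held all 10. The mutants were T-DNA insertion lines, 1 line for each gene. They were hpr1-1 (hydroxypyruvate reductase), shm1-2 (mitochondrial serine hydroxymethyltransferase), glyk1-1 (glycerate kinase) and pglp1-1 (phosphoglycolate phosphatase). All plants, wild type included, grew in 1% CO2 (HC) to the stage at which flower buds first show. For the low CO2 groups (LC), plants were moved to air with 0.038% CO2 as the dark period ended. Leaves of both conditions were collected 8 h after the light came on. Each group held 2 libraries, except the wild type with 3 at HC and 3 at LC, 22 libraries in all. The series describes them as biological replicates without saying how many plants each one held.

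RBOHs pass electrons from cytosolic NADPH across the membrane to oxygen, which makes superoxide in the cell wall space, and superoxide dismutation then gives hydrogen peroxide. Calcium binding at the N-terminal EF hands and phosphorylation by kinases switch the enzymes on. RBOHD is the main source of the immune oxidative burst in leaves, and RBOHD and RBOHF together serve abscisic acid signalling in guard cells. RBOHC, also called RHD2 (ROOT HAIR DEFECTIVE 2), drives the tip growth of root hairs. RBOHH and RBOHJ do the same in pollen tubes, RBOHE acts in the anther tapetum, and RBOHB is known from seeds.

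Library totals ran from 5911382 counts (hpr1 LC replicate 1) to 194460991 counts (shm1 LC replicate 1). One library, wild type LC replicate 3, had its values set against the wrong locus names for 4920 loci (19.2%). These cells were treated as missing, and RBOHJ was the member affected. The gene that names each line was low in its 4 libraries. HPR1 lay between 1.33 and 4.92 CPM (counts relative to the library total after TMM scaling) in hpr1 and between 67.4 and 818 CPM in the 18 others. SHM1 lay between 25.7 and 109 CPM in shm1 against 942 to 2450 CPM elsewhere, and GLYK between 0.626 and 1.46 CPM in glyk1 against 58.8 to 300 CPM. PGLP1, which has a near-identical copy, lay between 4.70 and 11.6 CPM in pglp1 against 18.3 to 144 CPM. The leaf label was checked on marker genes. A set of 4 mesophyll genes summed to between 2212 and 69270 CPM per library, and 3 floral organ identity genes to at most 2.22 CPM.

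The mesophyll sum was not even across groups. It was 13540 to 60280 CPM in wild type LC, 59170 to 69270 CPM in pglp1 LC, 22670 to 23810 CPM in hpr1 LC, 19340 to 20250 CPM in glyk1 LC and 2212 to 4411 CPM in shm1 LC. Epidermis markers (3 genes) summed to 112 to 161 CPM in wild type LC, 105 to 111 CPM in hpr1 LC, 92.4 to 98.6 CPM in pglp1 LC, 81.1 to 91.3 CPM in glyk1 LC and 45.1 to 47.3 CPM in shm1 LC. Phloem markers (2 genes) summed to 174 to 295 CPM in wild type LC and 334 to 381 CPM in shm1 LC, with the other mutants at LC between 142 and 237 CPM. The summed level of 5 guard cell genes went from 45.0 to 46.8 CPM in the 2 wild type LC libraries with a value for all 5, to 82.1 to 85.6 CPM in shm1 LC, 65.8 to 89.0 CPM in glyk1 LC and 58.6 to 63.0 CPM in pglp1 LC, with 34.4 to 42.3 CPM in hpr1 LC. In these bulk samples, fewer cells of a type and less RNA per cell cannot be told apart, and the part of these shifts in the RBOH values below was not tested.

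The start regions of the 3 abundant members are shown because these genes carried nearly the whole family pool and responded differently from one mutant to another. Each sequence holds the 250 bases before the annotated transcript start, read 5′ to 3′ on the gene's strand from RefSeq's copy of the TAIR10.1 assembly. Capitals mark W-boxes (TTGACC or TTGACT on either strand), the core that WRKY factors bind.
RBOHC, chr5:20762462-20762711, minus strand: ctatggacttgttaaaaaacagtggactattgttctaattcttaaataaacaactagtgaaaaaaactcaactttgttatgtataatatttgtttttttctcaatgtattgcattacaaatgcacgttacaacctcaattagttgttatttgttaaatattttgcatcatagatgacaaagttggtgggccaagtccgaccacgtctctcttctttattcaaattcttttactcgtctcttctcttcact
RBOHD, chr5:19396791-19397040, plus strand: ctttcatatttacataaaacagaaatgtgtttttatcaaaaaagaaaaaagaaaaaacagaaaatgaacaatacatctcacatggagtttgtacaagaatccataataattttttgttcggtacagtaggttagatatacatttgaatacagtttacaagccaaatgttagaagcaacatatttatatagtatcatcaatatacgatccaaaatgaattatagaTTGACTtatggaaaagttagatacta
RBOHF, chr1:23769524-23769773, plus strand: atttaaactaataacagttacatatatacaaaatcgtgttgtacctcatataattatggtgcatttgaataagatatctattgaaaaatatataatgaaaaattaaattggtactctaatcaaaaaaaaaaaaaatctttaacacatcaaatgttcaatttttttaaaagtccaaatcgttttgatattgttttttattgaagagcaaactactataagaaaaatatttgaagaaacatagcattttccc
The RBOHD window held 1 W-box, 26 bases before the start. No W-box, no G-box (CACGTG) and no TGA element (TGACG) was found in the RBOHC or RBOHF window, on either strand. Across 27443 Arabidopsis windows of the same length, 28.4% held a W-box, 6.5% a G-box and 18.6% a TGA element, so the match in RBOHD is a common one. The RBOHC gene spans chr5:20757199-20762461 on the minus strand with 11 exons, RBOHD spans chr5:19397041-19402061 on the plus strand with 8 exons, and RBOHF spans chr1:23769774-23776984 on the plus strand with 14 exons. None of these 3 overlaps another annotated gene.

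The 10 coding sequences were compared with one another to see how alike they were. Identity between pairs ran from 61.7% to 81.4%, highest between the pollen pair RBOHH and RBOHJ and next highest between RBOHC and RBOHG at 77.0%. No pair shared an identical run of 100 bases. The aligner and its treatment of reads that match several genes are not known, so the assignment of reads between members was not tested. RBOHA, RBOHB, RBOHE and RBOHG overlap a gene on the opposite strand by 169, 59, 133 and 37 bases. The library kit does not mark strand, so reads in those overlaps cannot be assigned to one gene.

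The family pool was first compared between members per unit of gene length, in the authors' RPKM. RBOHD made up most of it at HC, where it held between 90.7% and 94.2% of the summed RPKM of the family in the 3 wild type libraries. In wild type LC it held 79.7% to 87.8%, and RBOHC held at most 0.338%. This order changed in shm1 LC. There RBOHC held 54.0% and 61.9% of the family's RPKM and RBOHD held 35.8% and 41.9%. In glyk1 LC RBOHC held 24.2% and 39.2%, and in pglp1 LC 8.13% and 10.7%, where RBOHF held 27.4% and 35.1%. The summed RPKM of the 10 members was 20.8 ± 6.18 (SD, n = 3) in wild type LC, 41.9 ± 4.47 (n = 2) in hpr1 LC, 93.5 ± 13.8 (n = 2) in pglp1 LC, 137 ± 10.0 (n = 2) in shm1 LC and 268 ± 42.1 (n = 2) in glyk1 LC. These sums lack the TMM scaling of the CPM values, so groups compare differently on the 2 scales. The TMM factors ran from 1.01 to 1.25 in wild type LC and were 0.684 and 0.723 in pglp1 LC.

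**Figure D1:**
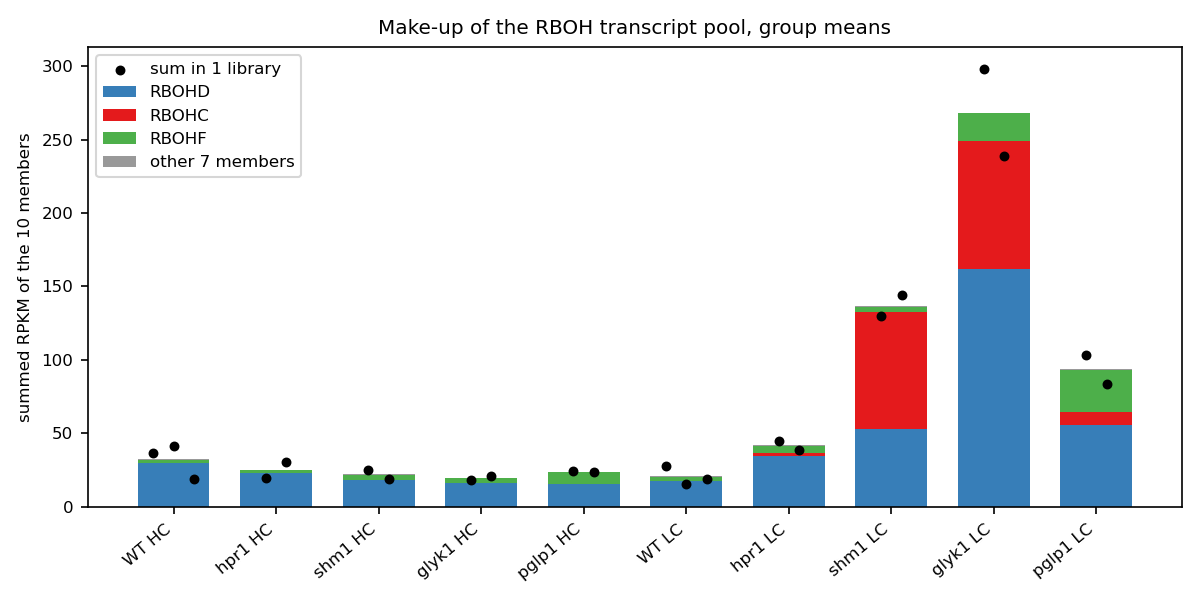
Stacked bars give the group mean RPKM of RBOHD, RBOHC, RBOHF and the other 7 members on an axis from 0, for the 10 groups, and black points give the summed RPKM of each library. The bars of all 4 mutants at LC stand above all HC bars. For hpr1 LC the margin is smallest, at 41.9 against 32.3 in wild type HC, and the libraries of these 2 groups overlap. Within the shm1 LC bar RBOHC is the largest of the 4 blocks, at 54.0% and 61.9% of the pool in its 2 libraries.

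Of the 10 members, 6 had enough counts for testing (RBOHB, RBOHC, RBOHD, RBOHE, RBOHF and RBOHI). RBOHB, RBOHC, RBOHE and RBOHI were nearly silent outside the LC mutants and reached the count filter largely through these groups, so counts over the 6 describe these genes and not the family. Tests were edgeR quasi-likelihood F tests with Benjamini-Hochberg adjustment over all 20372 loci tested, and a change is called at an adjusted p under 0.05. The comparisons with wild type LC share the same 3 wild type libraries and are not independent of one another. These 3 libraries were also less alike than the replicates of any other group. Their pairs had r of log counts from 0.761 to 0.87, against 0.914 to 0.985 elsewhere, without the displaced loci. In shm1 LC 6 of the 6 were called higher than in wild type LC, where 33.2% of all tested loci were called higher and 33% lower. In glyk1 LC 4 were called higher, beside 26.9% of loci higher and 28.7% lower. In pglp1 LC 3 were called higher, beside 27.1% and 32.6%, and in hpr1 LC 1, beside 2.13% and 0.712%. Against the mutants' own HC leaves, 5 members were called higher in shm1 (33.3% of loci higher, 32% lower), 5 in glyk1 (25.4% and 29.7%), 3 in pglp1 (26.4% and 28.6%) and 1 in hpr1 (8.79% and 6.35%). No member was called lower in any of these 8 comparisons. A call alone is therefore common in shm1, glyk1 and pglp1.

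RBOHC (AT5G51060), the root hair oxidase, was close to absent from leaves at HC. The wild type HC libraries read 0.646, 0.0995 and 0.0510 CPM, from 60, 7 and 1 counts. The 8 mutant HC libraries ranged from 0 to 0.664 CPM. Wild type LC stayed in the same range, with 0, 0.139 and 0.115 CPM from 0, 2 and 2 counts.

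At LC the mutants left this range. The shm1 libraries read 245 and 351 CPM, from 44057 and 18772 counts. The glyk1 libraries read 467 and 208 CPM, and the pglp1 libraries 51.5 and 30.1 CPM. All 6 libraries stood far above every wild type and every HC library, without overlap. Summed over each group and scaled to depth, the count ratio to wild type LC was 4220-fold in shm1 (95% counting interval 1650 to 15500), 5440-fold in glyk1 (2120 to 20000) and 612-fold in pglp1 (238 to 2250). These intervals cover counting error alone and are wide because wild type LC held 4 counts in all.

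In the fit across all loci, RBOHC was higher than in wild type LC by a log2 fold change of 12.08 in shm1 (SE 1.42, adjusted p = 3.98e-06), 12.26 in glyk1 (SE 1.43, adjusted p = 6.02e-06) and 9.21 in pglp1 (SE 1.38, adjusted p = 4.03e-05). The wild type baseline was 4 counts, and leaving out 1 wild type LC library moved these values. Without replicate 1 they were 11.18, 11.36 and 8.31, without replicate 2 they were 12.69, 12.87 and 9.82, and without replicate 3 they were 12.67, 12.93 and 9.84. The glyk1 value was 11.56 without glyk1 LC replicate 1. All 3 calls held in each of these fits.

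In hpr1 LC the 2 libraries disagreed, at 9.98 CPM (71 counts in the shallowest library of the series) and 0.537 CPM (52 counts). The second lay within the range of the HC libraries. The fitted log2 fold change was 6.04 (SE 1.48, adjusted p = 0.0413), and it fell to 2.86 with an adjusted p of 0.367 without hpr1 LC replicate 1. The edgeR call was also lost without any one of the 3 wild type LC libraries (adjusted p between 0.074 and 0.0914). DESeq2 kept the call (log2 fold change 6.07, adjusted p = 0.00146), and the edgeR value was 7.18 without hpr1 LC replicate 2. The edgeR call thus rests on few counts in single libraries.

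Against their own HC leaves, RBOHC rose in 3 mutants. The count ratio was 6250-fold in glyk1 (counting interval 3290 to 13700), 113-fold in pglp1 (61.3 to 237) and 17800-fold in shm1 (3200 to 704000), where the HC libraries held 1 count together. The fitted log2 fold changes were 12.50 in glyk1 (adjusted p = 1.83e-05), 6.86 in pglp1 (adjusted p = 0.00074) and 14.03 in shm1 (adjusted p = 1.39e-05). The shm1 value moved to 12.99 without HC replicate 1 and to 16.81 without HC replicate 2, and the glyk1 value to 11.79 without LC replicate 1. In hpr1 the log2 fold change was 3.75 (SE 1.28, adjusted p = 0.0589), and DESeq2 called it (adjusted p = 0.0299). This value rests on single libraries, at 0.55 without hpr1 LC replicate 1 (adjusted p = 0.773), 4.89 without LC replicate 2 (0.031), 2.83 without HC replicate 1 (0.325) and 7.16 without HC replicate 2 (0.072). In the wild type it was -2.23 (SE 1.66, adjusted p = 0.742).

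Root and root hair markers were low beside RBOHC and were read library by library. The table held 6 of 7 markers. From HC to LC their sum went from 0.0583 and 0.0131 to 0.412 and 1.87 CPM in glyk1 and from 1.07 and 0.588 to 6.46 and 3.79 CPM in pglp1, without overlap and in the same direction as RBOHC. In shm1 it was 0.0815 and 0.0340 CPM at HC and 0.317 and 0.0561 CPM at LC, which overlap. COBL9, PRP3 and CASP1 were at 0 counts in all 6 LC libraries of these mutants. At LC, PYK10 had counts in each of these mutants, EXPA7 in shm1 and pglp1, and EXPA18 in glyk1. The highest root marker sum of the series, 26.9 CPM, was in wild type LC replicate 1, which had 0 counts of RBOHC. In hpr1 LC the library with more RBOHC had the lower root marker sum, 0.141 against 4.11 CPM. The part of root tissue in the RBOHC values was not tested.

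The gene next to RBOHC was also higher in the same libraries. ERD1, which encodes a Clp protease regulatory subunit of the chloroplast, starts 1634 bases from the RBOHC start on the opposite strand and does not overlap it. Its libraries read 116 to 234 CPM in wild type LC, 6328 and 9607 CPM in shm1 LC, and its log2 fold change against wild type LC was 5.55 in shm1, 5.72 in glyk1 and 4.23 in pglp1 (adjusted p = 1.60e-07, 1.70e-07 and 9.22e-07, edgeR). The part of this neighbour in the RBOHC counts was not tested.

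**Figure D2:**
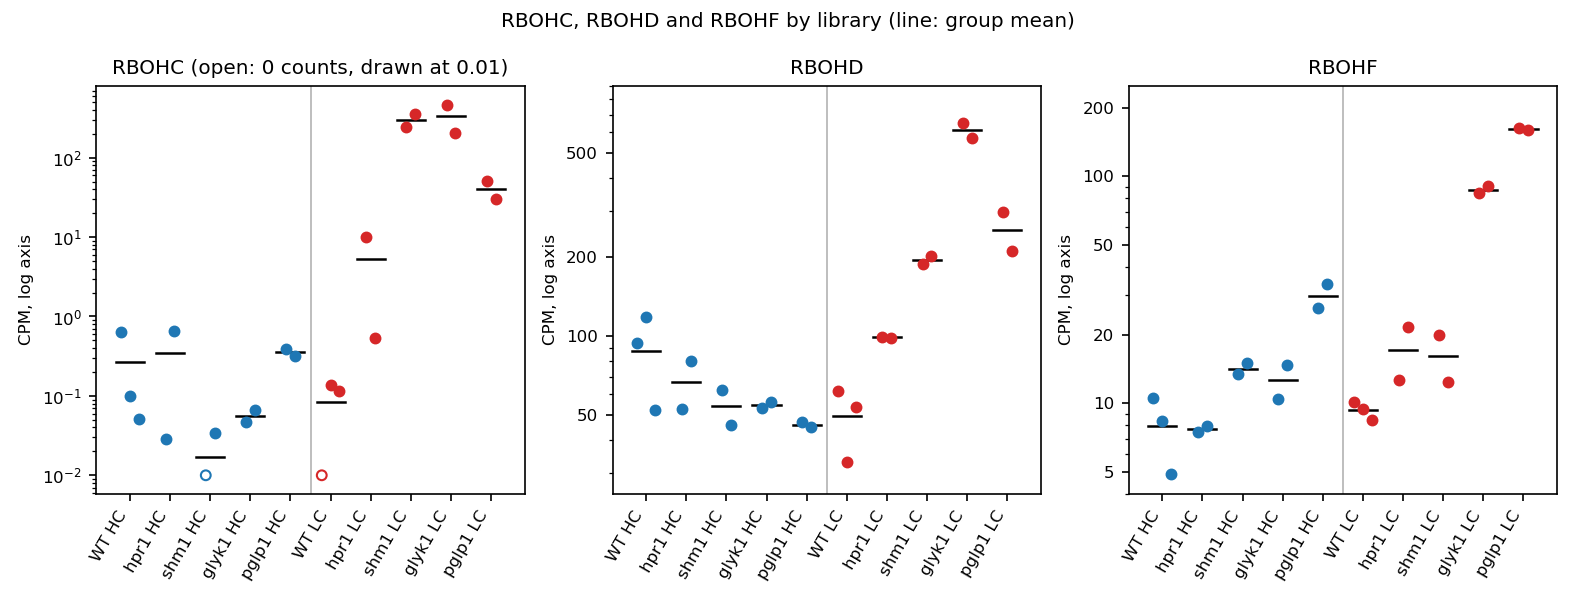
Each point is 1 library (blue HC, red LC), on a log axis of CPM with its own scale in each panel, and black lines are group means. Open points in the RBOHC panel had 0 counts and are drawn at 0.01 CPM. RBOHC climbs from under 1 CPM to between 30.1 and 467 CPM in shm1, glyk1 and pglp1 at LC, RBOHD peaks in glyk1 LC, and RBOHF peaks in pglp1 LC and is already raised in pglp1 HC.

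RBOHD (AT5G47910), the immune burst oxidase, was at 33.2 CPM or more in every library. Wild type HC libraries read 93.7, 118 and 52.1 CPM, and wild type LC libraries 61.9, 33.2 and 53.4 CPM. The 2 ranges overlap, and the log2 fold change of LC against HC was -0.83 (SE 0.29, adjusted p = 0.364).

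At LC every mutant library stood above every wild type LC library. The hpr1 libraries read 99.1 and 98.7 CPM, the shm1 libraries 188 and 201 CPM, the pglp1 libraries 298 and 211 CPM, and the glyk1 libraries 649 and 571 CPM. The log2 fold change against wild type LC was 3.62 in glyk1 (SE 0.33, adjusted p = 4.67e-07), 2.36 in pglp1 (SE 0.32, adjusted p = 1.21e-05) and 1.97 in shm1 (SE 0.31, adjusted p = 5.24e-05). In hpr1 it was 1.00 (95% interval 0.38 to 1.61, adjusted p = 0.101), and DESeq2 gave an adjusted p of 0.0341.

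RBOHD also rose against the mutants' own HC leaves, by log2 fold changes of 3.48 in glyk1 (adjusted p = 3.95e-06), 2.47 in pglp1 (adjusted p = 4.26e-05) and 1.85 in shm1 (adjusted p = 0.00032), all by edgeR. In hpr1 the value was 0.57 (95% interval -0.11 to 1.25, adjusted p = 0.262). In order of group means, glyk1 LC stood first (610 ± 54.9 CPM, SD, n = 2), then pglp1 LC (254 ± 62.2), shm1 LC (195 ± 9.20) and hpr1 LC (98.9 ± 0.277). The libraries of these neighbours do not overlap. From hpr1 LC downwards every group overlaps the next one in the order.

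RBOHF (AT1G64060), the partner of RBOHD in guard cells, was high in pglp1 and glyk1. Wild type libraries read 10.6, 8.37 and 4.90 CPM at HC and 10.2, 9.44 and 8.49 CPM at LC. The pglp1 LC libraries read 163 and 160 CPM and the glyk1 LC libraries 84.1 and 90.5 CPM. Both mutants lay clear of all other groups. The log2 fold change against wild type LC was 4.11 in pglp1 (SE 0.31, adjusted p = 4.81e-08) and 3.22 in glyk1 (SE 0.30, adjusted p = 5.97e-07).

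In shm1 LC, where RBOHC was among the highest, RBOHF hardly moved. Its libraries read 20.0 and 12.4 CPM, against 13.5 and 15.0 CPM in shm1 HC, and the log2 fold change over HC was 0.19 (95% interval -0.44 to 0.81, adjusted p = 0.617). Against wild type LC it was 0.79 (SE 0.29, adjusted p = 0.0246). That call was lost when the 2 groups were fitted alone (adjusted p = 0.0747) and without shm1 LC replicate 1 (0.327). The hpr1 LC libraries read 12.7 and 21.7 CPM, a log2 fold change of 0.89 over wild type LC (95% interval 0.32 to 1.47, adjusted p = 0.117).

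RBOHF was the only member called between a mutant and the wild type at HC. The pglp1 HC libraries read 26.3 and 33.4 CPM, above all other HC libraries, which ranged from 4.90 to 15.0 CPM. The log2 fold change against wild type HC was 1.90 (SE 0.29, adjusted p = 0.00335, edgeR), in a comparison where 1.62% of tested loci were called higher and 2.41% lower. From HC to LC, RBOHF rose further in pglp1, by 2.44 (SE 0.34, adjusted p = 2.16e-05), and in glyk1 by 2.79 (SE 0.34, adjusted p = 9.10e-06). In hpr1 it rose by 1.17 (SE 0.33, adjusted p = 0.029). That call was lost when the 2 groups were fitted alone (adjusted p = 0.058) and without hpr1 HC replicate 1 (0.192), hpr1 HC replicate 2 (0.0963) or hpr1 LC replicate 2 (0.289).

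Among the other HC comparisons with the wild type, none of the 6 members was called by edgeR in hpr1, shm1 or glyk1. At an unadjusted p under 0.05 there were 0, 2 and 1, and DESeq2 also called 0 in each. The loci called higher in these 3 comparisons were 0%, 0.00491% and 0%, and those called lower 0.00491%, 0.0147% and 0.00491%. In the wild type, LC against HC called none of the 6, with 1 at an unadjusted p under 0.05 (RBOHD) and 0 by DESeq2, beside 0.00491% of all loci called higher and 0.0147% lower.

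The change from HC to LC was also tested against that of the wild type, as an interaction. In shm1 4 of the 6 members had a called interaction (RBOHC, RBOHD, RBOHE and RBOHI), all higher, beside 27.3% of loci higher and 26.3% lower. In glyk1 4 were called (RBOHC, RBOHD, RBOHE and RBOHF), beside 18.9% and 20.2%, and in pglp1 3 (RBOHC, RBOHD and RBOHF), beside 20.7% and 20.5%. In hpr1 edgeR called none, with 3 at an unadjusted p under 0.05 and 0 by DESeq2, beside 0.103% of loci higher and 0.0147% lower.

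The mutants were then compared with each other at LC, a set of 6 pairs added after the levels had been seen, together with 3 pairs at HC for pglp1. RBOHF was lower in shm1 than in glyk1 by a log2 difference of -2.43 (SE 0.33, adjusted p = 7.54e-05), in a pair with 18.9% of loci higher and 19.2% lower. It was lower in shm1 than in pglp1 by -3.32 (SE 0.35, adjusted p = 1.94e-06), with 29.8% of loci higher and 24% lower. In glyk1 against pglp1 the RBOHF difference was -0.89 (SE 0.32, adjusted p = 0.0337, 24.6% of loci higher and 18.8% lower). That call was lost when any one of the 4 libraries was left out, with an adjusted p between 0.0767 and 0.147.

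RBOHD was lower in shm1 than in glyk1 by -1.65 (SE 0.35, adjusted p = 0.00211). It was higher in glyk1 than in pglp1 by 1.26 (SE 0.35, adjusted p = 0.00903), a call lost without pglp1 LC replicate 2 (adjusted p = 0.0571). Between shm1 and pglp1 the RBOHD difference was -0.39 (95% interval -1.07 to 0.29). The order of the mutants thus depended on the member, with glyk1 first for RBOHD and pglp1 first for RBOHF.

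For RBOHC, shm1 and glyk1 differed by -0.18 (95% interval -2.04 to 1.68, adjusted p = 0.902), an interval too wide to call the 2 mutants alike. RBOHC was higher in both than in pglp1, by 2.87 in shm1 (adjusted p = 0.0274) and 3.05 in glyk1 (adjusted p = 0.0265). Both calls were lost in DESeq2 (adjusted p = 0.0903 and 0.071) and without either pglp1 LC library, the first also without shm1 LC replicate 2 (0.0895) and the second without glyk1 LC replicate 1 (0.139).

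The hpr1 LC libraries stood below the other mutants in most of these values. RBOHC was lower in hpr1 than in shm1 by -6.04 (adjusted p = 0.000723, 28.1% of loci higher and 26.6% lower), than in glyk1 by -6.22 (adjusted p = 0.00116, 20.8% and 18.7%) and than in pglp1 by -3.17 (adjusted p = 0.0242, 29.4% and 22.9%). The last call was lost when the 2 groups were fitted alone (edgeR, adjusted p = 0.111). It was also lost without hpr1 LC replicate 2 (log2 difference -2.03) or pglp1 LC replicate 1 (-2.71). RBOHD was lower in hpr1 than in glyk1 by -2.62 (adjusted p = 7.95e-05), than in pglp1 by -1.36 (adjusted p = 0.00436) and than in shm1 by -0.98 (adjusted p = 0.027). The last of these was lost without hpr1 LC replicate 2 (adjusted p = 0.105) or either shm1 LC library (0.0591 and 0.0636). RBOHF was lower in hpr1 than in glyk1 by -2.33 (adjusted p = 9.58e-05) and than in pglp1 by -3.22 (adjusted p = 3.29e-06). RBOHF differed between hpr1 and shm1 by 0.10 (95% interval -0.53 to 0.73).

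At HC, RBOHF was higher in pglp1 than in hpr1 by 1.95 (adjusted p = 0.009, 1.3% of loci higher and 0.952% lower) and than in glyk1 by 1.24 (adjusted p = 0.0373, 2.4% and 3.33%). Its difference from shm1 was 1.07 (adjusted p = 0.0638, 2.79% and 2.66%), and DESeq2 gave 0.00277. The call against hpr1 was lost without hpr1 HC replicate 1 (adjusted p = 0.0722), hpr1 HC replicate 2 (0.0836) or pglp1 HC replicate 2 (0.0577). The call against glyk1 was lost without either glyk1 HC library or pglp1 HC replicate 2, with an adjusted p between 0.126 and 0.187.

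**Figure D3:**
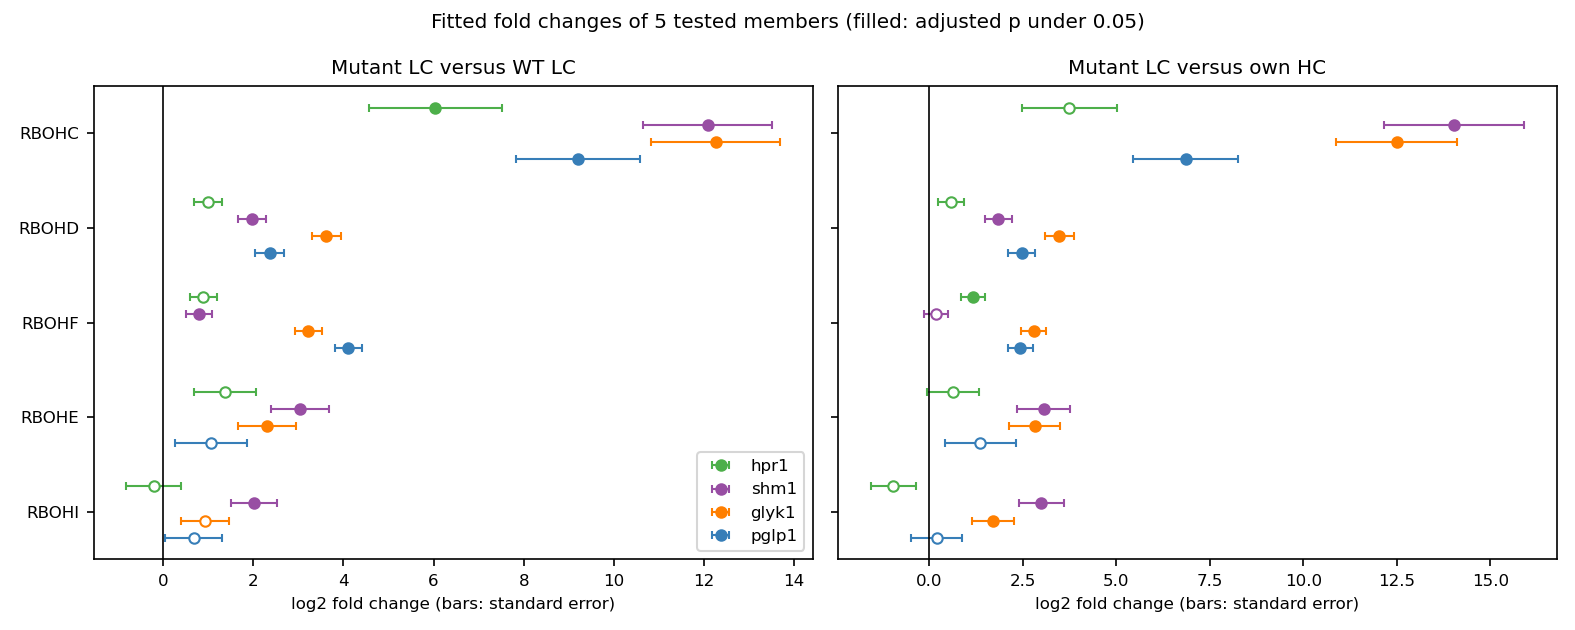
Points give the edgeR log2 fold change of 5 tested members, with bars for 1 standard error, for mutant LC against wild type LC (left) and against the mutant's own HC (right), on axes of different range. Filled points have an adjusted p under 0.05. RBOHC lies between 9.21 and 12.26 on the left for shm1, glyk1 and pglp1, and RBOHF in shm1 lies near 0 on the right at 0.19.

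The remaining members stayed low throughout. RBOHE (AT1G19230), the tapetum oxidase, read 0.195, 0.278 and 0.0574 CPM in wild type LC, 1.30 and 1.63 CPM in shm1 LC (234 and 87 counts) and 0.791 and 0.964 CPM in glyk1 LC (48 and 50 counts). Both mutants lay above all wild type and HC libraries. The log2 fold change against wild type LC was 3.04 in shm1 (SE 0.64, adjusted p = 0.000623) and 2.31 in glyk1 (SE 0.65, adjusted p = 0.00686). Its antisense neighbour AT1G19240 moved with it, by 1.47 in shm1 (adjusted p = 0.00018) and 1.27 in glyk1 (adjusted p = 0.000957), and the part of that gene in the RBOHE counts was not tested. In pglp1 LC the libraries spread from 0.0861 to 0.705 CPM.

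RBOHI (AT4G11230) read 0.195, 0.347 and 0.115 CPM in wild type LC and 0.673 and 1.08 CPM in shm1 LC, from 121 and 58 counts. The log2 fold change was 2.02 (SE 0.51, adjusted p = 0.00268). Over its own HC leaves RBOHI rose in shm1 by 2.99 (adjusted p = 0.000468) and in glyk1 by 1.71 (adjusted p = 0.0155). The glyk1 call was lost without HC replicate 1, HC replicate 2 or LC replicate 1 (adjusted p = 0.0537, 0.0906 and 0.2).

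RBOHB (AT1G09090) was seen almost wholly in shm1 LC, with 74 and 27 counts (0.411 and 0.505 CPM) out of 111 in the series. The group ratio to the 2 counts of wild type LC was 13.6-fold (counting interval 3.66 to 113), and shm1 HC held 0 counts, which makes the ratio there at least 9.55-fold with 3 counts set over that group. edgeR gave an adjusted p of 0.0127 against wild type LC, which became 0.0546 without shm1 LC replicate 2 and 0.372 in DESeq2. Its fitted log2 fold change of 3.67 became 2.83 without wild type LC replicate 1 and 7.56 without replicate 3. The opposite-strand gene that it overlaps, AT1G09100, was higher in shm1 LC by 1.13 (adjusted p = 0.0209), and the part of that gene in the RBOHB counts was not tested.

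RBOHA (AT5G07390), RBOHG (AT4G25090), RBOHH (AT5G60010) and RBOHJ (AT3G45810) were not tested in the main fit. RBOHA had 18 counts in all, 12 of them in shm1 LC, 5 in glyk1 LC and 1 in pglp1 LC. RBOHG had 31 counts spread over 8 libraries, with 14 in glyk1 LC, all of them in replicate 1. The pollen oxidases were near the limit of detection, RBOHH with 5 counts in 1 shm1 LC library and RBOHJ with 0 counts in 21 libraries. The pollen markers VGD1 and ANX2 were at 0 in both shm1 LC libraries too. PPME1 had counts in shm1 LC, at under 1 CPM in each library, and was at 0 in shm1 HC and wild type LC. ANX1 gave nearly the whole sum of the pollen list in shm1 LC.

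**Figure D4:**
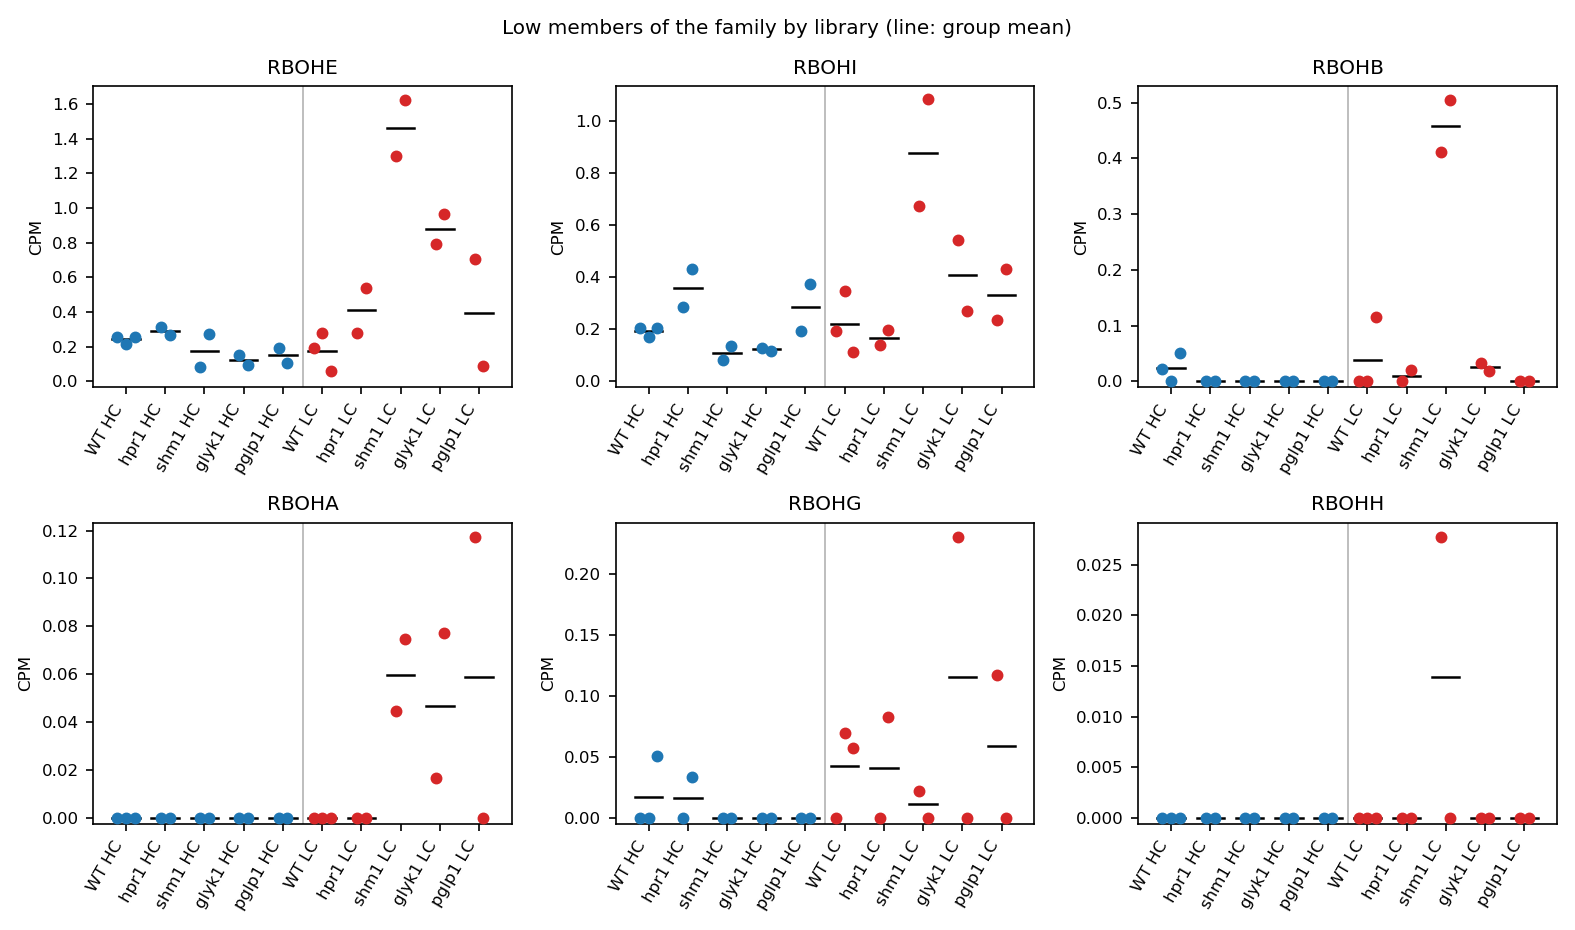
Points are single libraries (blue HC, red LC) and lines are group means, in CPM on linear axes that differ between panels. RBOHE and RBOHI are highest in shm1 LC at up to 1.63 and 1.08 CPM, RBOHB is nearly confined to shm1 LC, and RBOHA, RBOHG and RBOHH rest on 18, 31 and 5 counts.

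The authors' deposited table gave its own fold changes, computed from mean RPKM with 1 added. For RBOHC against wild type LC the authors' deposited table listed log2 values of 6.29 in shm1, 6.42 in glyk1 and 3.27 in pglp1, with q-values of 6.54e-14, 2.39e-14 and 1.69e-07. These are far smaller than the count-based values because the added 1 exceeds the RPKM of RBOHC in wild type leaves. For RBOHD against wild type LC the authors' deposited table listed 3.11 in glyk1 with a q-value of 0.389, and 1.52 and 1.59 in shm1 and pglp1 with q-values of 1. Against the mutants' own HC leaves the same deposited values for RBOHD were 3.23, 1.49 and 1.77 in glyk1, shm1 and pglp1, with authors' q-values of 2.48e-31, 0.00136 and 9.73e-18. For RBOHF in pglp1 the authors' deposited table listed 1.52 against wild type HC (q-value 3.54e-05) and 2.99 against wild type LC (q-value 0.0281). For RBOHF in glyk1 against wild type LC the authors' deposited table listed 2.39 with a q-value of 0.517, and in shm1 0.29 with a q-value of 1, both of which edgeR called here.

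Genes that work with the RBOHs, or that act on superoxide or hydrogen peroxide, were read in the same 4 LC comparisons. Lists are described by their calls and median, beside the median of all tested loci, which was 0.04 in hpr1, -0.02 in shm1, -0.13 in glyk1 and -0.21 in pglp1. The shares of all loci called higher and lower, against which each list's counts are to be read, were 2.13% and 0.712% in hpr1, 33.2% and 33% in shm1, 26.9% and 28.7% in glyk1 and 27.1% and 32.6% in pglp1. No difference between a list and other loci was tested. Of 19 immune receptors and kinases that act upstream of RBOHD, 15 were called higher and 2 lower in shm1 (median log2 fold change 2.30), 17 and 0 in glyk1 (2.25), 17 and 1 in pglp1 (2.46), and 2 and 0 in hpr1 (0.75). BIK1, the cytoplasmic kinase that phosphorylates RBOHD, read 7.50 to 11.9 CPM in wild type LC and 368 and 482 CPM in pglp1 LC, a log2 fold change of 5.46 (adjusted p = 2.34e-09). In hpr1 LC BIK1 rose by 1.74 (adjusted p = 0.00261, and 0.352 with the 2 groups fitted alone). PEPR1, a receptor of the plant's own Pep peptides, led the list in shm1, at 283 and 292 CPM against 9.68 to 20.2 CPM in wild type LC (log2 fold change 4.40, adjusted p = 2.13e-07). XLG2, an extra-large G protein of the same pathway, led it in glyk1 with 4.75 (adjusted p = 5.09e-07).

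FLS2, the flagellin receptor, was the largest fall of this list in shm1 and pglp1. It read 9.12 to 46.5 CPM in wild type LC and 5.29 and 9.82 CPM in pglp1 LC, a log2 fold change of -1.86 (adjusted p = 0.00777). Fitting the 2 groups alone ended the call (adjusted p = 0.088), as did leaving out wild type LC replicate 3 (adjusted p = 0.0543) or pglp1 LC replicate 1 (0.0963). In shm1 the value was -1.21 (adjusted p = 0.0467), with an adjusted p of 0.299 without wild type LC replicate 3 and 0.338 without shm1 LC replicate 2.

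Of 11 guard cell and abscisic acid partners of RBOHD and RBOHF, 5 were called higher and 1 lower in shm1 (median 0.85), 6 and 1 in glyk1 (0.81), 6 and 2 in pglp1 (1.71), and none in hpr1 (0.09). CBL1, a calcium sensor of the CBL-CIPK kinase system that acts on RBOHF, led the rises in all 3, from 4.76 to 8.99 CPM in wild type LC to 293 and 356 CPM in glyk1 LC (log2 fold change 5.59, adjusted p = 5.98e-08). GHR1, a receptor-like kinase needed for stomatal closure by hydrogen peroxide, was the largest fall in all 3. It read 2.66 to 6.48 CPM in wild type LC and 0.0374 and 0.111 CPM in shm1 LC, where it fell by 5.74 on the log2 scale (adjusted p = 1.18e-05), with falls of 4.21 in glyk1 (adjusted p = 0.000159) and 3.40 in pglp1 (adjusted p = 0.00163).

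The ROP GTPase module positions and activates RBOHC in root hairs. Of 16 tested genes of this list of 18, 1 was called higher and 12 lower in shm1 (median -1.51), 3 and 5 in glyk1 (-0.70), 3 and 4 in pglp1 (-0.52) and none in hpr1 (-0.30). The glyk1 and pglp1 counts lie near the shares over all loci (26.9% and 28.7%, and 27.1% and 32.6%), whereas in shm1 all loci were split evenly (33.2% and 33%). ROPGEF3, the exchange factor that marks the root hair initiation site, fell by 4.42 in shm1 (adjusted p = 0.0011), from 0.130 to 0.902 CPM in wild type LC to 0.0187 and 0.0222 CPM. FERONIA (FER), the receptor kinase upstream of ROP2, was the largest rise in glyk1, at 288 and 327 CPM against 133 and 148 CPM in the 2 usable wild type LC libraries (log2 fold change 1.27, adjusted p = 3.95e-05). ROP2 itself was the largest rise in pglp1 (1.36, adjusted p = 0.000137). The 1 gene called higher in shm1 was ANX1, a receptor kinase known from pollen tubes, at 11.1 and 15.2 CPM against 2.47 to 4.13 CPM (2.03, adjusted p = 2.58e-05). In glyk1 ROP9 fell by 2.94 (adjusted p = 0.0119) from at most 0.486 CPM, a call lost without glyk1 LC replicate 1 (adjusted p = 0.118) or wild type LC replicate 3 (0.0506) and with the 2 groups alone (0.111). ROPGEF3 in pglp1, with 1 count, had a value of -3.26 (adjusted p = 0.0476) that was lost in 8 of its alternatives.

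Superoxide dismutases, which turn superoxide into hydrogen peroxide, were called in both directions in shm1, glyk1 and pglp1. CSD1 and FSD3, named below, act inside the cell, whereas RBOHs make superoxide in the cell wall space. In shm1 1 of 7 was called higher and 4 lower (median -2.30), in glyk1 2 and 3 (-0.57), in pglp1 3 and 2 (0.73) and in hpr1 none (-0.25). Over all loci 33.2% were called higher and 33% lower in shm1, 26.9% and 28.7% in glyk1 and 27.1% and 32.6% in pglp1. For a list of 7 genes, the glyk1 and pglp1 counts lie near those shares. CSD1, the cytosolic copper/zinc enzyme, read 38.5 to 100.1 CPM in wild type LC, 340 and 391 CPM in shm1 LC and 411 and 496 CPM in glyk1 LC (log2 fold changes 2.47 and 2.78, adjusted p = 0.000746 and 0.000455). FSD3, an iron enzyme of the plastid nucleoid, read 17.0 to 32.8 CPM in wild type LC and 0.430 and 1.81 CPM in shm1 LC. It fell by 4.29 in shm1 (adjusted p = 6.40e-06), 3.62 in glyk1 (adjusted p = 4.05e-05) and 2.69 in pglp1 (adjusted p = 0.000389). FSD1, another iron enzyme, was the largest rise in pglp1 (1.82, adjusted p = 0.000189).

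Of 6 apoplastic peroxidases and peroxide-permeable aquaporins, 3 were called higher and 2 lower in shm1 (median 0.55), 2 and 0 in glyk1 (0.51), 3 and 0 in pglp1 (1.06) and none in hpr1 (0.12). Over all loci 33.2% were called higher and 33% lower in shm1, 26.9% and 28.7% in glyk1 and 27.1% and 32.6% in pglp1. The shm1 counts and the glyk1 count of rises lie near those shares. PRX33, a cell wall peroxidase of the immune burst, led the rises in these 3 mutants. Its libraries read 0.0974 and 0.625 CPM in the 2 usable wild type LC libraries and 54.8 and 69.1 CPM in shm1 LC, with log2 fold changes of 7.78 in shm1, 6.46 in glyk1 and 5.94 in pglp1 (adjusted p = 0.000265, 0.00133 and 0.00196). PRX33 has a close tandem copy, PRX34, so the split of reads between them is uncertain. With the displaced rows left as deposited, these 3 calls were lost (adjusted p = 0.0943, 0.394 and 0.567). The fall of the aquaporin PIP2;4 in shm1 (-3.27, adjusted p = 0.0359) was lost without wild type LC replicate 3 (adjusted p = 0.811) and without shm1 LC replicate 1 or 2 (0.0519 and 0.194).

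The ferric reductases (FRO family), which are the nearest relatives of the RBOHs among plant flavocytochromes, were read in the same way. Of 7 tested of 8, none was called higher in shm1 or glyk1, where 4 and 5 were called lower (medians -2.70 and -2.80), 1 was higher and 2 lower in pglp1 (0.58), and none in hpr1 (0.47). Over all loci 33.2% were called higher and 33% lower in shm1, 26.9% and 28.7% in glyk1 and 27.1% and 32.6% in pglp1, and the pglp1 counts lie near those shares. FRO6 and FRO7 are adjacent, near-identical genes, and their separate values are uncertain. FRO6 fell by 3.87 in shm1 (adjusted p = 0.00309, and 0.0525 with the 2 groups fitted alone), and FRO7, a chloroplast enzyme, was the largest rise in pglp1 (2.32, adjusted p = 0.00482). FRO4 fell by 4.06 in pglp1 (adjusted p = 0.00228), and FRO5 lies next to FRO4 as another near copy. FRO1 in glyk1 had 3 counts and a value of -3.19 (adjusted p = 0.0279), a call lost without either glyk1 LC library (adjusted p = 0.179 and 0.0786) or wild type LC replicate 1 (0.0967).

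**Figure D5:**
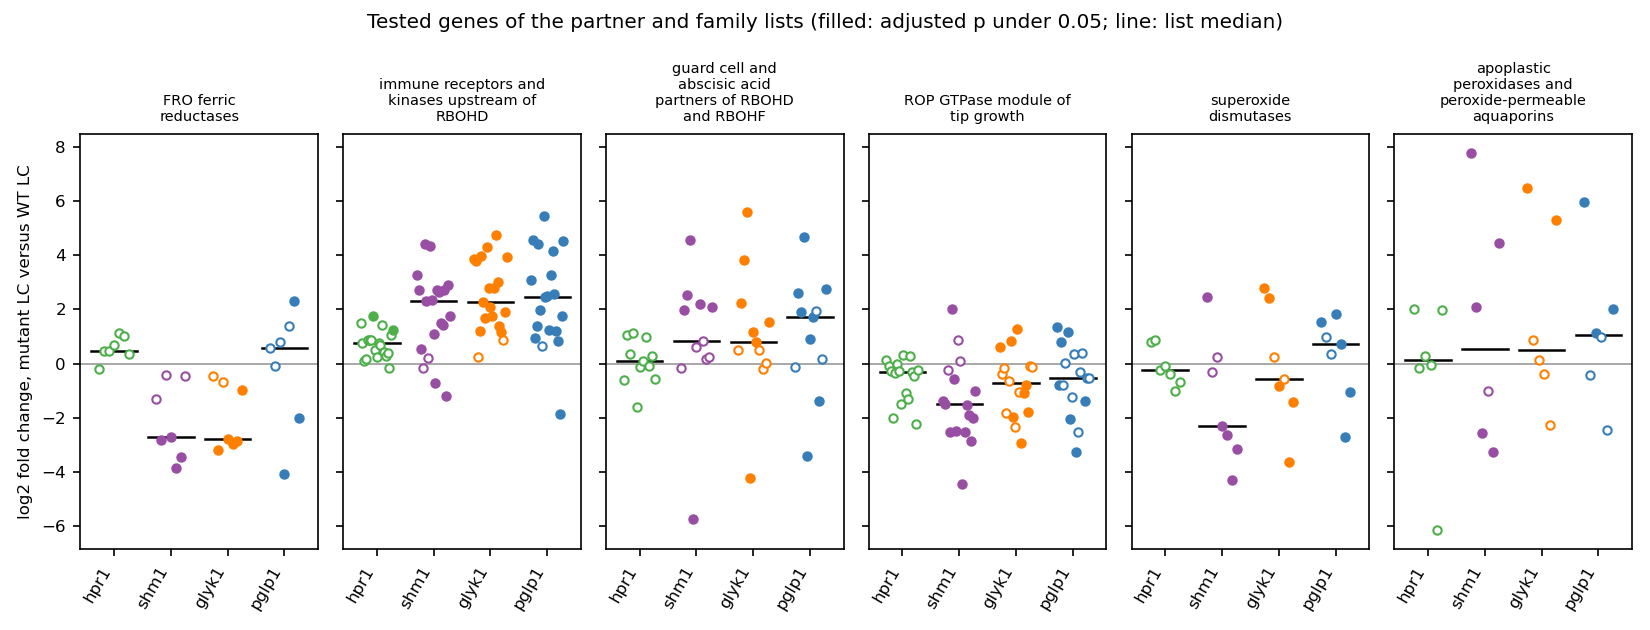
Each point is a tested gene of the named list, placed by its log2 fold change in mutant LC against wild type LC, with filled points at an adjusted p under 0.05 and lines at the list medians. The median of the upstream immune list lies above 0 in every mutant, at 2.30, 2.25 and 2.46 in shm1, glyk1 and pglp1 and lower in hpr1. The median of the ROP module lies below 0 in every mutant. That of the ferric reductases lies below 0 in shm1 and glyk1 and above 0 in pglp1 and hpr1.

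Genes whose profile was most like that of a member were picked by Pearson's r of the 10 group means of log2(CPM + 0.5), among 17606 loci, as a description with no test. For RBOHD these were WRKY67 (r = 0.986), a WRKY transcription factor, AT3G55840 (0.985) and AT3G19010 (0.985). For RBOHF they were CIP1 (0.983), AT5G17440 (0.981) and SNRK2.4 (0.979), a kinase of osmotic stress signalling. For RBOHC, added after its values were seen, they were AT5G42010 (0.995), GSTU12 (0.995), a glutathione transferase, and AT5G62910 (0.995). Between members, r was 0.928 for RBOHC with RBOHD, 0.724 for RBOHD with RBOHF and 0.652 for RBOHC with RBOHF. All of these values share the same libraries and lean on the 3 LC groups in which many loci were called.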

How the data were processed

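RNA-seq of polyA RNA from leaves was deposited as 1 table of counts per locus, RPKM and the authors' q-values and log2 fold changes, per the file headers. The submitters' processing notes name CASAVA 1.8, edgeR, TAIR9 and TAIR10, and no source used here names the aligner. Libraries were made with a kit that does not mark strand and read single-end or paired-end, without a record of which library had which mode, per the labels. The authors' RPKM was used as deposited to compare members per length.

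From the deposited counts, edgeR 4.0.16 (R 4.3.3) fitted 10 group means over 22 libraries with TMM scaling, filterByExpr and robust quasi-likelihood F tests. Loci displaced in wild type LC replicate 3 were fitted in 21 libraries. P-values were adjusted over 20372 loci, and the code was tested on simulated data. DESeq2 1.42.0, its size factors, no filter, a replicate block, the 2 groups alone, the rows as deposited and each library left out were alternatives. A lone library left in a group was assumed to vary like the others. Same-numbered wild type libraries deviated together between HC and LC (r 0.468, 0.17 and 0.427), but no label pairs them. The mutants have 2 numbers each. Same-numbered libraries of different genotypes gave r from -0.531 (glyk1 HC with wild type HC) to 0.389 (shm1 HC with wild type HC). Pairing was therefore not established, and the main fit used none. Members and lists were chosen with earlier results of these data known. From each list, the called gene with the largest rise and the largest fall in each LC comparison is named. Intervals on count ratios cover counting error only, and depth (5911382 to 194460991 counts) limits the low members. The SE of a log2 fold change was taken from its F statistic, and the 95% intervals from that SE by a normal approximation. These intervals are therefore narrower than the F tests imply. How many plants stand behind each library is unknown, so p-values reflect library-to-library spread.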

Additional observations from a re-analysis of the deposited data

Results flagged for a closer look

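For 11 member results the step from HC to LC differed between a mutant and the wild type when the difference itself was tested, as an interaction term in edgeR with Benjamini-Hochberg adjustment over all loci. Each value is the mutant's log2 change minus the wild type's.

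RBOHC differed by 16.26 in shm1 (SE 2.33, adjusted p = 6.08e-05), by 14.73 in glyk1 (SE 2.03, adjusted p = 7.73e-05) and by 9.09 in pglp1 (SE 2.02, adjusted p = 0.00224). These sizes lean on 1 to 10 counts in the mutants' HC groups and on 4 counts in wild type LC. They also take in the uncalled wild type change of -2.23, whose HC libraries held 60, 7 and 1 counts. RBOHD differed by 2.68 in shm1 (adjusted p = 0.000197), 4.31 in glyk1 (adjusted p = 1.10e-05) and 3.30 in pglp1 (adjusted p = 5.39e-05). RBOHF differed by 2.56 in glyk1 (adjusted p = 0.000276) and 2.21 in pglp1 (adjusted p = 0.000646), and in shm1 its value was -0.04 (adjusted p = 0.952).

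RBOHE differed by 3.52 in shm1 and 3.27 in glyk1, and RBOHI by 2.85 in shm1. The RBOHE result in glyk1 was lost without glyk1 HC replicate 2 (2.96, adjusted p = 0.0577). In these interactions 27.3% of tested loci were called higher in shm1, 18.9% in glyk1 and 20.7% in pglp1. In hpr1 none of the 6 members was called by edgeR or by DESeq2, with 3 at an unadjusted p under 0.05 in each.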

How the results depend on the processing

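The 40 member results called in the comparisons with the wild type or between LC and HC had 469 values under alternatives, counted only where the member was tested. Of these, 448 kept direction and call, 21 lost the call and none reversed, and 4 uncalled results gained a call. The count of members called in hpr1 LC against its own HC was 1. It was 2 in DESeq2, 2 with a block that crossed the replicate numbers of hpr1 HC (chosen after seeing the data, since same-numbered hpr1 libraries deviated in opposite directions, r = -0.326) and 0 when the 2 groups were fitted alone. Leaving out each replicate in turn gave 0 to 1. The count in hpr1 LC against wild type LC was also 1. It was 2 in DESeq2 and 0 with no filter on low counts, with the replicate block and with all rows as deposited. With the 2 groups alone it was also 0, but only 2 members were tested there. RBOHC, the member called in the main fit, did not pass the count filter of that fit. Leaving out 1 wild type LC replicate gave 0 to 1. The cause of these moves was not tested. Between mutants and the wild type, replicates share only a number. With that number as a block, the calls of RBOHC in hpr1 LC (adjusted p = 0.12), RBOHF (0.0726), FLS2 (0.203) and PIP2;4 (0.35) in shm1 LC and ROPGEF3 in pglp1 LC (0.0974), each against wild type LC, were lost, the RBOHB interaction in shm1 was gained (0.0258), and no other call on a named gene in those comparisons changed.

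With DESeq2's size factors the median of all loci in pglp1 LC against wild type LC moved from -0.21 to -0.09, a shift of 0.12. Relative to the median of all loci, the pglp1 values of RBOHC, RBOHD and RBOHF were 9.42, 2.57 and 4.32. With the 2 groups fitted alone, 0 loci were called in hpr1 LC against wild type LC (1574 at an unadjusted p under 0.05), against 433 higher and 145 lower in the fit of all groups. Depth limits RBOHA, RBOHG, RBOHH and RBOHJ, which did not pass the count filter of the main fit. The fit with no filter on low counts took in RBOHA, RBOHG and RBOHH but not RBOHJ, which had 0 counts.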
